A study of Mus musculus with 9 samples.

Results

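A set of 9 genes that mark or specify the duct and acinar cells of the pancreas, Sox9, Nr5a2, Krt19, Bhlha15, Ptf1a, Onecut1, Hes1, Spp1 and Muc1, was followed through chromatin immunoprecipitation sequencing (ChIP-seq) of mouse islet cell lines. They were found by gene name in the authors' table of windows, with every window of each gene kept, and in the called peaks that lay within 5 kb of the gene. Of the 9 genes, 5 had a window, which gave 7 of the 17641 windows in the table. Krt19, Ptf1a, Spp1 and Muc1 had none.

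The libraries are labelled as made with an antibody against H3K9me3, the trimethylated lysine 9 of histone H3. The betaTC3 group (n = 2) is a murine beta cell line with no treatment, the KD group (n = 2) is the murine alpha cell line alphaTC1 at 5 days after transduction with Smndc1 shRNA, a short hairpin RNA against a splicing factor whose RNA these libraries do not measure, and the EV group (n = 2) is alphaTC1 at 5 days after transduction with empty vector. Each group also has 1 input sample, which makes 9 samples. Both lines come from tumours of transgenic mice that express the SV40 T antigen, under the insulin promoter for betaTC3 and under the glucagon promoter for alphaTC1, and each is a single line. Because betaTC3 carried no vector, line and transduction cannot be told apart in its comparison with EV, nor line and shRNA in its comparison with KD.

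The libraries held between 4530066 and 9924487 reads in the windows, and the authors scaled the reads of each library by 1 factor. Values are given as these scaled reads per window, almost all windows being 401 bp wide, so levels of different genes refer to the same length. A count of 3 reads, the limit that a count of 0 allows, amounts to between 2.4 and 4.19 scaled reads, depending on the library. Intervals of pooled read ratios, and limits, cover counting error only. Those of log2 changes rest on the spread between libraries, as fitted with limma. Most windows of the marker genes separated betaTC3 from the alphaTC1 groups. All 8 windows of the 6 alpha cell markers were called lower in betaTC3 than in EV, and 5 of 8 windows of the beta cell markers were called higher, with no window for Ins2. Over the whole table, 33.2% of windows were called lower and 22.1% higher. The windows of Nkx6-1 were not called against EV. Between KD and EV, 0 of 8 windows of each marker set were called, against 0.0% of all windows. The window of Gcg, the glucagon gene, held 0 in both betaTC3 libraries, 352 and 421 in KD and 340 and 352 in EV. The window of Ins1, an insulin gene, held 354 and 314 scaled reads in betaTC3, 0 in both KD libraries, and 1.32 and 0 in EV. H3K9me3 is known from silent chromatin, whereas here 65.5% of windows lay within 1 kb of a gene start, by the distance in the authors' table, or across it and the hormone gene of each line carried signal in its own line. The values below are therefore called signal of the libraries labelled H3K9me3, and the identity of the mark was not tested.

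As background, duct, acinar and endocrine cells of the pancreas all descend from progenitors that carry SOX9, PTF1A and the cut-homeobox factor ONECUT1. Notch signalling acts in these progenitors through RBPJ and the repressor HES1, which holds back endocrine and acinar programmes. In the adult organ SOX9, HES1 and ONECUT1 are kept in ducts and centroacinar cells, PTF1A, NR5A2 and BHLHA15 in acinar cells, and all of these are known to be low or off in most mature islet cells.

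Between betaTC3 and EV, 6 of the 7 windows of these genes were called, 5 lower and 1 higher in betaTC3 (limma on log2(scaled reads + 1), Benjamini-Hochberg adjusted p below 0.05 over all windows). Over the whole table, 55.2% of windows were called in this comparison, 22.1% higher and 33.2% lower. The windows of Sox9, Onecut1, Nr5a2 and the start of Hes1 were lower in betaTC3, and the window at the start of Bhlha15 was higher. Between betaTC3 and KD the same 6 windows were called with the same directions, against 60.6% of all windows, 36.6% higher and 24.0% lower. These comparisons share the betaTC3 libraries. The median log2 change over the 7 windows was -4.35 for betaTC3 minus EV and -4.09 for betaTC3 minus KD, and over all windows it was -0.13 and 0.23. The windows come from the authors' peak set, so a window may be there because a peak was called in a single line. Peaks near Sox9, Nr5a2 and Onecut1 were called only in alphaTC1, and near Bhlha15 only in betaTC3. For these windows the direction may be fixed by how they entered. The counts and medians describe the windows and do not test the genes. In bulk libraries, fewer cells with signal and less signal per cell cannot be told apart.

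**Figure D1:**
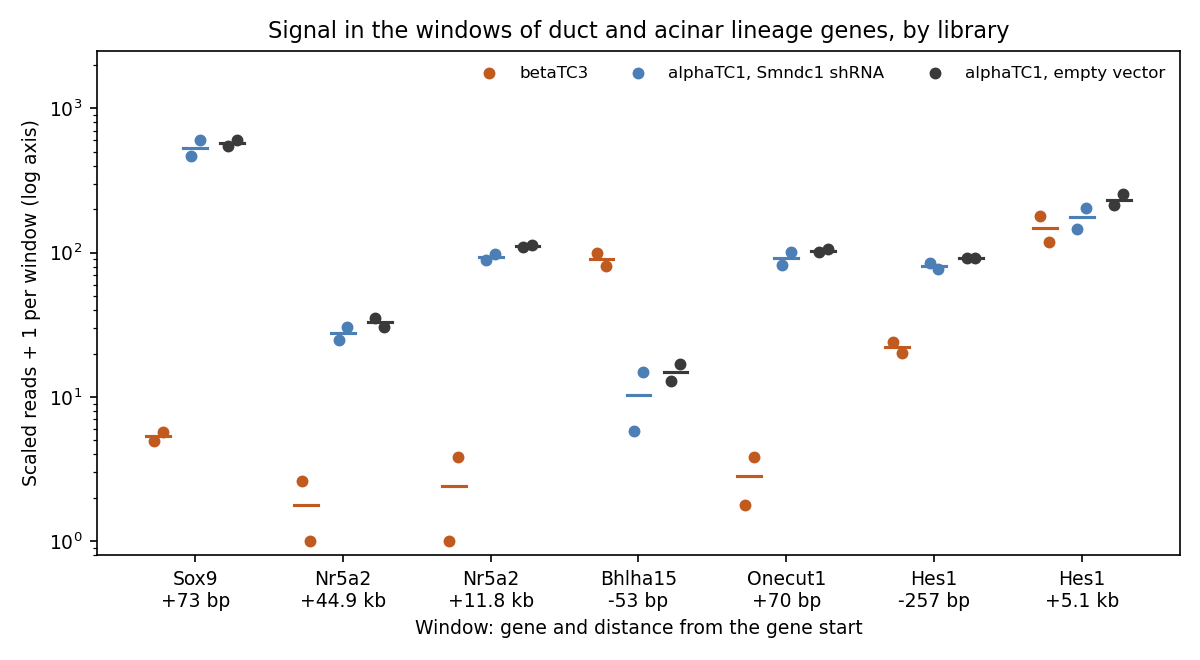
Scaled reads + 1 (vertical log axis) of each library (points) and the group mean (short lines) in the 7 windows of Sox9, Nr5a2, Bhlha15, Onecut1 and Hes1, with betaTC3 left of KD (Smndc1 shRNA) and EV (empty vector) at each window. The betaTC3 points lie far below both alphaTC1 groups for Sox9, Onecut1 and Nr5a2, above them for Bhlha15, and for the downstream window of Hes1 1 betaTC3 point lies between the KD points and the other below them.

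Sox9 encodes the SRY-box factor that maintains pancreatic progenitors and ducts. Its single window (ENSMUSG00000000567, GRCm38 chr11:112782297-112782697) begins 73 bp inside the gene and held 3.99 and 4.76 scaled reads in betaTC3, 465 and 598 in KD, and 546 and 601 in EV. The betaTC3 libraries were near the limit of detection, while both alphaTC1 groups were high and overlapped each other. The log2 change was -6.74 for betaTC3 minus EV (SE 0.20, adjusted p = 6.3e-06 by limma) and -6.62 for betaTC3 minus KD (SE 0.20, adjusted p = 5.7e-06 by limma). Pooled over libraries, EV held 133 times the reads of betaTC3, with a 95% counting interval of 72.2 to 279. Among all windows, this one ranked at the 6.48th percentile of level in betaTC3, at the 73.1st in KD and at the 64.6th in EV. No other window of the table lay within 100 kb of it, and the nearest called peak in betaTC3 was 412 kb from the gene. Over the 1385 windows of chromosome 11, the median log2 change was -0.72 for betaTC3 minus EV and -0.34 for betaTC3 minus KD.

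Onecut1, also known as HNF6, encodes a cut-homeobox factor required for duct development and for the onset of the endocrine programme. Its window (ENSMUSG00000043013, chr9:74861991-74862391), 70 bp inside the gene, held 0.80 and 2.85 scaled reads in betaTC3, 81.2 and 101 in KD, and 99.3 and 105 in EV. The betaTC3 values rest on 4 reads in all, and the KD and EV values overlapped. The log2 change was -5.29 for betaTC3 minus EV (SE 0.39, adjusted p = 6.0e-05 by limma) and -5.12 for betaTC3 minus KD (SE 0.39, adjusted p = 6.9e-05 by limma). A window of Fam214a, 91084 bp away, had a log2 change of -0.02 for betaTC3 minus EV and was not called (adjusted p = 0.937 by limma). Against KD it was called higher in betaTC3, by 0.45 on the log2 scale (adjusted p = 0.0489 by limma).

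Hes1 encodes the basic helix-loop-helix repressor that answers Notch. Its window across the gene start (ENSMUSG00000022528, chr16:30065083-30065483) held 23.2 and 19.0 scaled reads in betaTC3, 83.6 and 75.5 in KD, and 90.0 and 91.4 in EV. Both betaTC3 libraries lay below all 4 alphaTC1 libraries, but well above the limit of detection, unlike Sox9 and Onecut1. The log2 change was -2.06 for betaTC3 minus EV (SE 0.22, adjusted p = 0.000273 by limma) and -1.87 for betaTC3 minus KD (SE 0.22, adjusted p = 0.000447 by limma). The other Hes1 window (chr16:30070456-30070856), 5116 bp from the gene start and downstream of the gene, held 178 and 117 scaled reads in betaTC3, 146 and 204 in KD, and 212 and 252 in EV. Here the betaTC3 and KD values overlapped, and neither comparison of betaTC3 was called (adjusted p = 0.0684 against EV and 0.425 against KD by limma). The difference to EV was -0.67 on the log2 scale, with a 95% interval of -1.31 to -0.04, and the difference to KD was -0.25, with an interval of -0.89 to 0.38. Called neighbours of the Hes1 start within 100 kb, 4632428C04Rik and Gm20040, were also lower in betaTC3 than in EV, with log2 changes of -2.46 and -3.22.

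Nr5a2 encodes the nuclear receptor LRH-1, which acts with PTF1A at acinar enzyme genes. Its windows lie inside the gene and not at its start. The window at 11760 bp from the gene start (ENSMUSG00000026398, chr1:136948688-136949088) held 0 and 2.85 scaled reads in betaTC3, 87.2 and 96.4 in KD, and 109 and 113 in EV. The window at 44915 bp (chr1:136915533-136915933) held 1.60 and 0 in betaTC3, 23.9 and 29.3 in KD, and 34.4 and 29.3 in EV. In both windows the betaTC3 libraries were at or under the limit of 3 reads and all alphaTC1 libraries were above it. The log2 change for betaTC3 minus EV was -5.83 at the first window (SE 0.59, adjusted p = 0.000236 by limma) and -4.35 at the second (SE 0.47, adjusted p = 0.000326 by limma). For betaTC3 minus KD it was -5.56 and -4.09 (adjusted p = 0.000307 and 0.000454 by limma).

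Bhlha15, also known as Mist1, encodes the factor that organises the secretory apparatus of mature acinar cells, and it is the only one of the 5 genes with more signal in betaTC3. Its window across the gene start (ENSMUSG00000052271, chr5:144190233-144190633) held 99.0 and 79.9 scaled reads in betaTC3, 4.78 and 14.0 in KD, and 11.9 and 16.0 in EV. Both betaTC3 libraries were above all alphaTC1 libraries, which were low but not at 0. The log2 change was 2.60 for betaTC3 minus EV (SE 0.47, adjusted p = 0.00340 by limma) and 3.27 for betaTC3 minus KD (SE 0.47, adjusted p = 0.00126 by limma). Where a library is left out, its group keeps 1 library, whose spread is taken from the remaining groups. The call against EV was lost when either betaTC3 library was left out, with log2 changes of 2.45 without replicate 1 (adjusted p = 0.0727 by limma) and 2.76 without replicate 2 (adjusted p = 0.0544 by limma). Of the 3 windows within 100 kb, Lmtk2, Tecpr1 and 2900089D17Rik, 1 was called higher in betaTC3 than in EV, that of Lmtk2, with a log2 change of 0.87. Against KD all 3 were called higher in betaTC3, with log2 changes of 1.40 for Lmtk2, 0.50 for Tecpr1 and 1.24 for 2900089D17Rik.

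The order of levels differed between the lines. In betaTC3 the downstream window of Hes1 was highest with 148 ± 43.2 scaled reads (SD, n = 2), then Bhlha15 with 89.5 ± 13.5 and the Hes1 start with 21.1 ± 2.92. Sox9, with 4.38 ± 0.541 scaled reads, came next in betaTC3, and the windows of Onecut1 and Nr5a2 below it overlapped one another. In KD the order was Sox9 with 531 ± 94.4, the downstream Hes1 window with 175 ± 41.2, then Nr5a2 at 11760 bp, Onecut1 and the Hes1 start, with means between 79.5 and 91.8. Neighbours among these last windows in KD overlapped. In EV Sox9 was highest with 573 ± 39.3 scaled reads, and Bhlha15 was lowest with 13.9 ± 2.87, below the Nr5a2 window at 44915 bp with 31.9 ± 3.63.

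**Figure D2:**
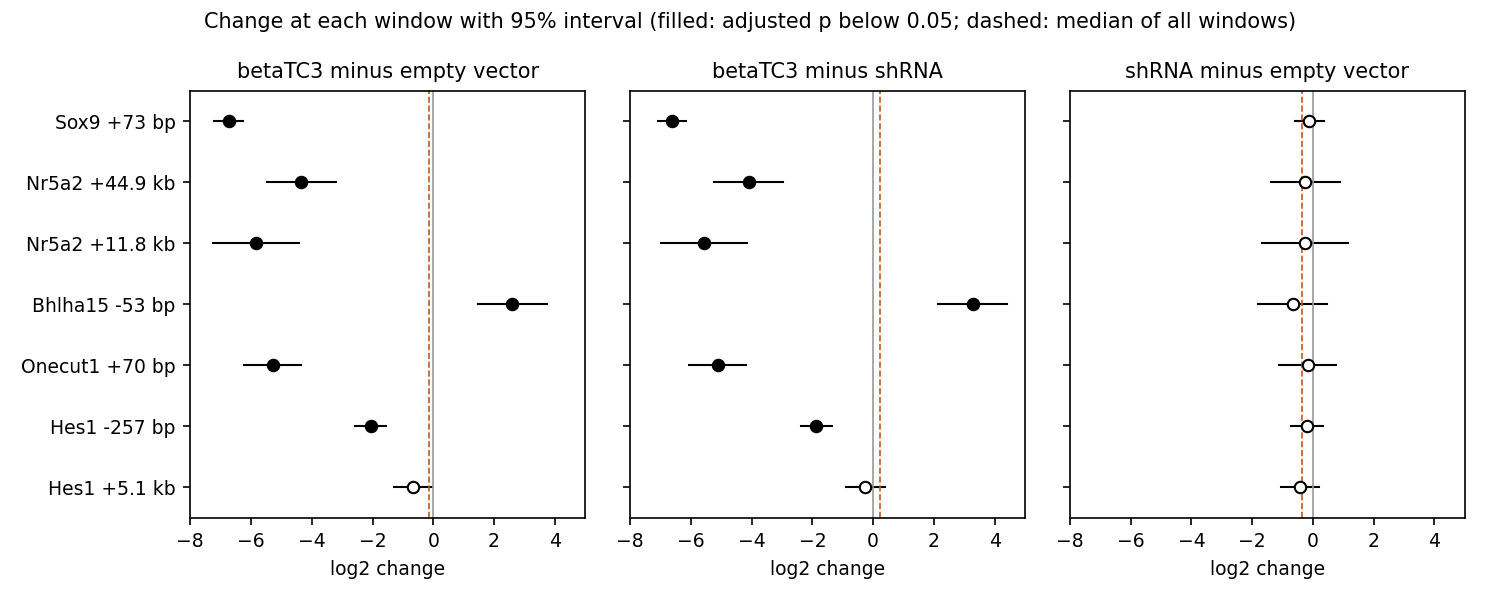
Log2 change of each of the 7 windows (points, filled where called) with its 95% interval (bars) for betaTC3 minus EV, betaTC3 minus KD and KD minus EV, the dashed line being the median of all windows. The intervals of the KD minus EV comparison all include 0, whereas those of Sox9, Onecut1 and Nr5a2 end at -2.96 or lower in both betaTC3 comparisons.

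The knockdown did not bring any of these windows past the threshold. Between KD and EV, 0 of 7 windows were called by limma and 0 had an unadjusted p below 0.05, edgeR called 0, and DESeq2 called 0 of the 2 for which it gave an adjusted p. Over all windows limma called 0 as well (0.0%), edgeR called 0 and DESeq2 called 10, although 6169 windows had an unadjusted p below 0.05 in limma. The 7 log2 changes ranged from -0.67 for Bhlha15 to -0.12 for Sox9, and all were below 0, as was the median of all windows at -0.37. Once each library was centred on its median, the sign turned at Sox9, Onecut1, the Hes1 start and both Nr5a2 windows, with changes from 0.11 to 0.26, and stayed below 0 at Bhlha15 and the downstream Hes1 window.

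For Sox9 the 95% interval of the KD minus EV difference ran from -0.59 to 0.35 on the log2 scale, and for the Hes1 start from -0.71 to 0.33. For Bhlha15 it ran from -1.80 to 0.46, the change being -0.67 (adjusted p = 0.304 by limma). That value rested on single libraries. Without KD replicate 2, the Bhlha15 change was -1.36 and was called (adjusted p = 0.0416 by limma), and without KD replicate 1 it was 0.016. Leaving out KD replicate 2 also led to 6281 called windows over the whole table, 35.6% of all. The p without replicate 2 rests on the spread of the other groups. The libraries of KD and EV did not overlap in 3 of the 7 windows, against 71.5% of all windows. Against betaTC3 they did not overlap in 7 of 7 windows for EV, where 82.8% of all windows did not, and in 6 of 7 for KD, where 81.0% did not.

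Called peaks, which the authors listed separately for each library, gave the extent of the signal around each gene. Within 5 kb, a peak stood in both libraries at 3 of the 9 genes in betaTC3 (Bhlha15, Hes1 and Muc1), and at 5 in KD and 5 in EV, which were Sox9, Nr5a2, Onecut1, Hes1 and Muc1 in both. Of all protein-coding genes, 59.9% had such a peak in betaTC3, 58.8% in KD and 58.6% in EV. With only peaks at or above the median -log10 q-value of their list, the counts were 0 in betaTC3, 2 in KD and 2 in EV, the genes left being Sox9 and Hes1. Of all protein-coding genes, 44.8% had such a stronger peak in betaTC3, 46.8% in KD and 46.6% in EV.

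**Figure D3:**
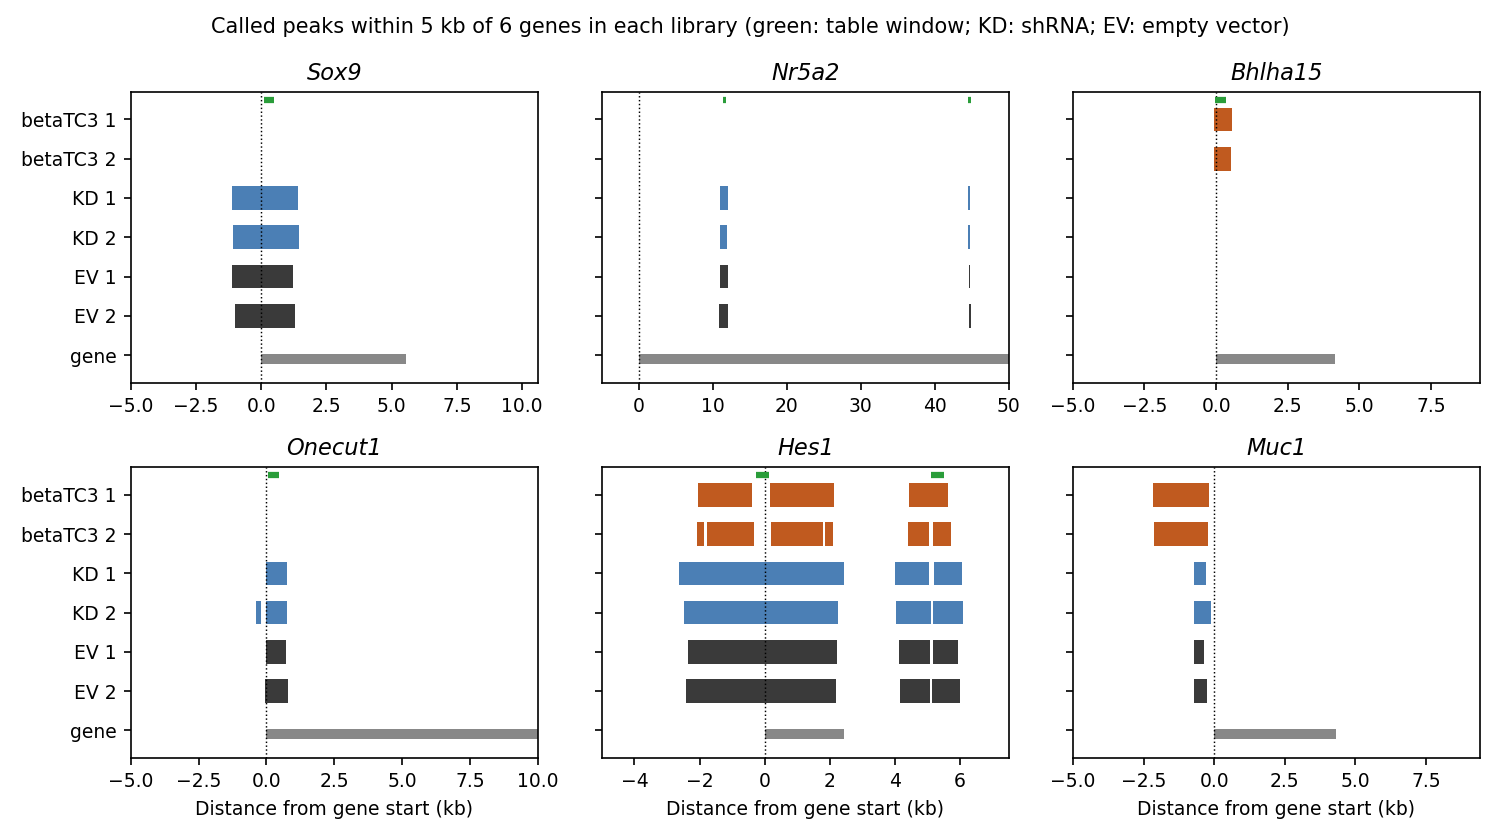
Called peaks (bars) of each library around the starts of Sox9, Nr5a2, Bhlha15, Onecut1, Hes1 and Muc1, with green marks for the table's windows, the gene in grey, the distance from the gene start in kb on the horizontal axis, and betaTC3 rows above KD and EV. At Hes1 the alphaTC1 bars cross the gene start without a break and the betaTC3 bars leave a gap there.

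At Sox9 a single broad peak covered the gene start in each alphaTC1 library and none was called in betaTC3. It was 2518 and 2529 bp wide in KD and 2357 and 2301 bp in EV, beginning between 1011 and 1132 bp before the start and ending between 1224 and 1428 bp after it. The authors' fold over background at this peak was 34.8 and 46.0 in KD and 31.4 and 33.8 in EV. At Onecut1 the peak was narrower and sat just inside the gene, with widths of 785 and 782 bp in KD and of 745 and 845 bp in EV. The second KD library had another peak of 184 bp, which ended 209 bp before the start. No peak was called at Onecut1 in betaTC3, where the nearest was 62.8 kb away.

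Hes1 had peaks in all 6 libraries, with a different shape in each line. In alphaTC1 a peak of 5046 and 4728 bp in KD, and of 4556 and 4609 bp in EV, ran across the gene start without a break. These widths ranked between the 99.3rd and 99.5th percentile of their own lists. In betaTC3 the same stretch was split, with no peak from 389 bp before to 157 bp after the start in the first library and from 330 bp before to 199 bp after it in the second. The window at the Hes1 start lies wholly in that gap. In total the peaks near Hes1 covered 4845 and 4721 bp in betaTC3, 6977 and 6708 bp in KD, and 6270 and 6392 bp in EV. The noncoding gene Gm32998 lies between the end of Hes1 and the downstream window, so signal of the 2 genes cannot be told apart there.

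At Nr5a2 each alphaTC1 library had 2 peaks, and neither betaTC3 library had any. The peak about 11 kb inside the gene was 986 and 1004 bp wide in KD and 1034 and 1186 bp in EV. The peak more than 44 kb inside was 276 and 337 bp wide in KD and 160 and 272 bp in EV. This farther peak was weak, with an authors' fold of 4.38 and 4.21 in KD and 5.51 and 3.75 in EV. Its -log10 q-value ranked between the 1.24th and 7.55th percentile of the lists. Neither of the 2 annotated promoters of Nr5a2 carried a peak in any library. At Bhlha15 the pattern was turned round, with a peak of 656 and 602 bp in betaTC3 and none in alphaTC1, where the nearest lay 28.2 to 28.4 kb away.

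In all, 3 genes had no peak within 5 kb in any library. Ptf1a encodes the factor that commits progenitors to the acinar fate, and its nearest peaks were 73.4 to 73.8 kb away in all libraries. Spp1, which encodes the secreted phosphoprotein osteopontin of duct cells, had its nearest peaks at 17.9 to 18.1 kb. Krt19, the keratin filament gene used to stain ducts, had its nearest peak at 97.4 and 173 kb in betaTC3 and at 94.2 to 94.3 kb in alphaTC1. The absence of a called peak says that signal was not detectable at this depth by the authors' caller.

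Muc1, the transmembrane mucin of the apical duct surface, had called peaks before its start but no window under its own name. The peak was 1972 and 1923 bp wide in betaTC3, 426 and 600 bp in KD, and 380 and 472 bp in EV. In betaTC3 it ran from 2147 and 2139 bp to 176 and 217 bp before the start, and in alphaTC1 from at most 727 bp to at least 120 bp before it. Its summit lay 1806 and 1816 bp before the start in betaTC3, 529 and 544 bp in KD, and 585 and 580 bp in EV. The authors' fold over background was 20.5 and 21.1 in betaTC3, 12 and 21.4 in KD, and 12 and 14.3 in EV. Because the summits differ in place and the folds come from separate lists, the folds were not compared between the lines. The table holds 1 window in this stretch (chr3:89227474-89227874), 1582 bp before Muc1, which lies inside the betaTC3 peaks and outside the alphaTC1 peaks. It is assigned to the microRNA gene Mir92b and was picked after its values were seen. It held 101 and 130 scaled reads in betaTC3, 0 and 2.80 in KD, and 0 and 1.78 in EV, a log2 change of 6.12 for betaTC3 minus EV (SE 0.73, adjusted p = 0.000505 by limma). Thbs3 ends 2215 bp before Muc1, and signal of these genes cannot be told apart here.

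The sequence before the gene start is shown for the 3 genes whose peaks begin or end in the 250 bases before it, and for Ptf1a as a promoter with no peak nearby. Each is the RefSeq sequence of GRCm38.p6, 250 bases of the plus strand up to the base before the gene start, and capitals mark the bases inside a called peak, of betaTC3 for Bhlha15 and Muc1 and of alphaTC1 for Onecut1. They lie at chr5:144190036-144190285 for Bhlha15, chr9:74861671-74861920 for Onecut1, chr3:89228806-89229055 for Muc1 and chr2:19445413-19445662 for Ptf1a.
Bhlha15: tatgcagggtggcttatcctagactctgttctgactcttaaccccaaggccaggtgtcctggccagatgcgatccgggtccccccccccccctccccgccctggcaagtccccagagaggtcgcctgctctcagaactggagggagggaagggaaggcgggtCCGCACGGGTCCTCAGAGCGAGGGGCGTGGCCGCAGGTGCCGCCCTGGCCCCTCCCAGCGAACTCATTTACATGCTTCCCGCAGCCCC
Onecut1: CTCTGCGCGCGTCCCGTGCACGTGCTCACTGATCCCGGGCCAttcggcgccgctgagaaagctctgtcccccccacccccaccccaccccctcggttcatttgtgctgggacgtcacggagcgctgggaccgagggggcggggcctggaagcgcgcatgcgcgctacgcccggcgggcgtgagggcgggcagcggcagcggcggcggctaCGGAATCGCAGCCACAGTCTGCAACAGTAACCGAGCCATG
Muc1: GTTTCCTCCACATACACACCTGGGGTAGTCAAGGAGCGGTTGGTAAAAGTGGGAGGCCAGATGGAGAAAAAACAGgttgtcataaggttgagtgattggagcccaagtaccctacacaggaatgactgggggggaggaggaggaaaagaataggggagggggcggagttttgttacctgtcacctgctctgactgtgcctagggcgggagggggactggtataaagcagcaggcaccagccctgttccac
Ptf1a: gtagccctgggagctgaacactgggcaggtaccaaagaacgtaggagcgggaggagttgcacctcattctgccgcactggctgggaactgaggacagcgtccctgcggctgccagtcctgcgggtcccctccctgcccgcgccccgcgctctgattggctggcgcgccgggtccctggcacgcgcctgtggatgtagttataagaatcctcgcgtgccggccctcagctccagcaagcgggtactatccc

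In Bhlha15 the last 88 bases before the start are inside a betaTC3 peak. In Onecut1 the capitals at the right end belong to the peak over the gene, and the first 42 capitals to the small peak of the second KD library alone. In Muc1 the 75 bases farthest from the gene are inside a betaTC3 peak, and the 131 bases farthest from it are inside the peak of the second KD library, which the capitals do not mark. The other alphaTC1 libraries have no peak in these 250 bases. In Ptf1a all 250 bases are in lower case. RefSeq promoters, taken as 250 bases before to 50 after a start, were found for 6 of the 9 genes. The ratio of observed to expected CpG was 0.951 at Onecut1, 0.677 at Ptf1a, 0.514 at Bhlha15 and 0.267 at Muc1, with a median of 0.384 over 32851 promoters. The promoters of Spp1 and Nr5a2 had ratios between 0.152 and 0.412. The ratio at Ptf1a, which had no peak, was above that at Bhlha15, which had a peak in betaTC3.

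Motifs were searched on both strands of these promoters. The letters TGGGAA, the core bound by RBPJ, occurred 1 time in the Ptf1a promoter, from 169 to 164 bases before the start, and in none of the other 5 genes, while 25.6% of all promoters hold it. The E-box CANNTG, which basic helix-loop-helix factors bind, occurred 3 times at Bhlha15, 3 times at Muc1, 2 times at Onecut1 and not at Ptf1a, against 72.3% of all promoters with a match. The E-box nearest to the start of Bhlha15, CAGGTG at 55 to 50 bases before the start, lies in the capitals shown for it. The N-box CACNAG, a target of HES proteins, occurred at Muc1 and Spp1, against 42.5% of all promoters, and no E-box overlapped an N-box. A match is a description of letters and not a binding site.

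The wider lineage programme was described by gene lists other than these 9 genes, for acinar transcription factors, acinar enzymes, duct genes and the Notch pathway. Of the 101 genes listed, 48 had a window, 55 windows in all. Between betaTC3 and EV, 41 of the 55 windows were called, 20 higher and 21 lower, and between betaTC3 and KD 42 were called, 24 higher and 18 lower. Their median log2 change was -0.07 and 0.21, beside -0.13 and 0.23 over all windows. The background shares are those given above for each comparison. Listed windows also come from the peak set, so these counts are description only. Between KD and EV, 0 of the 55 were called by limma, 15 had an unadjusted p below 0.05, and their median was -0.36. With a pseudocount of 0.1 limma called 3 of them, against 1.9% of all windows, and without the intensity trend 1, against 0.924% of all windows.

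**Figure D4:**
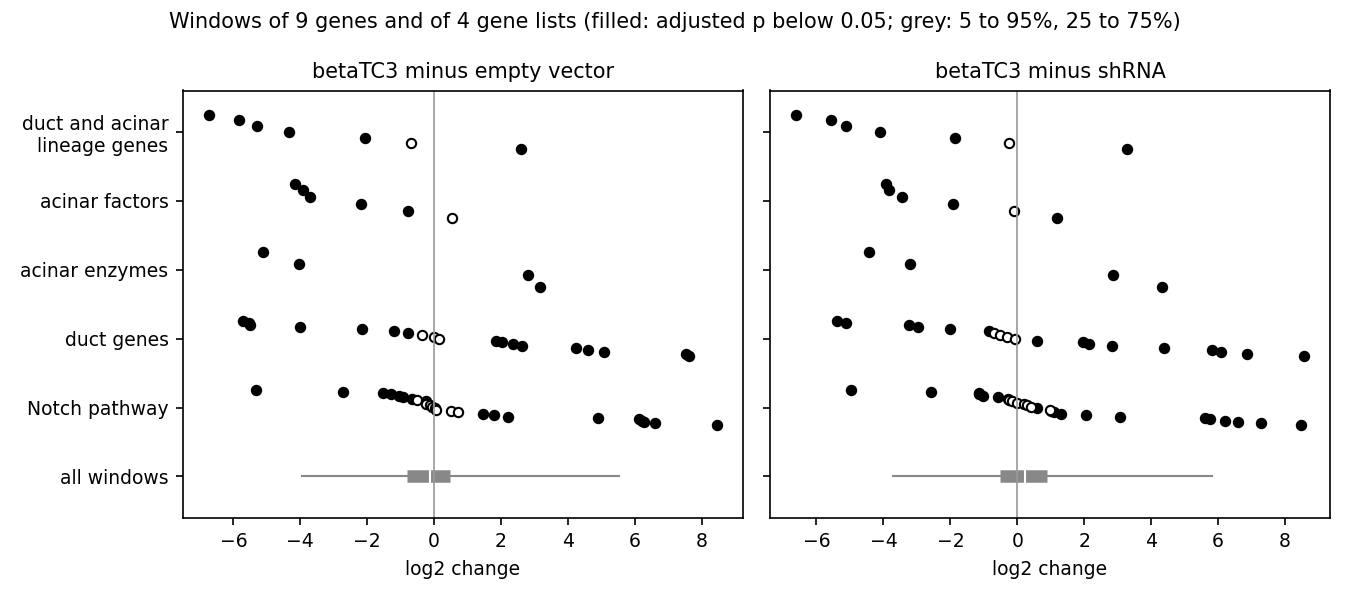
Log2 change of every window of the 9 genes and of the 4 lists (points, filled where called) for betaTC3 minus EV (left) and betaTC3 minus KD (right), with all windows as a grey bar from the 25th to the 75th percentile and a grey line for the 5th to 95th percentile. The acinar factor row lies below 0 but for 1 point in each panel, and the duct and Notch rows spread to both sides.

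Acinar transcription factors were lower in betaTC3 in 5 of 6 windows against EV, with none higher and a median log2 change of -2.95. After median centring 1 of the 6 was higher. Gata6 and Gata4, zinc finger factors of the early pancreas, held 24.2 and 4.62 scaled reads on average in betaTC3 and 447 and 79.9 in EV. The change for betaTC3 minus EV was -4.17 for Gata6 and -3.92 for Gata4 on the log2 scale (limma adjusted p = 1.4e-05 and 0.000146). Foxp2, a forkhead factor, had 214 in betaTC3 against 971 in EV (log2 change -2.18), and a window 13729 bp upstream of Rbpjl, the acinar partner of PTF1A, had 10.4 in betaTC3 against 135 in EV (log2 change -3.72). Against KD, 4 windows were lower in betaTC3 and 1, that of Tcf3, was higher, and the lower ones were these 4.

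Of 36 acinar enzyme genes only 4 had a window, none of them across a gene start. The nearest, that of Cela1, has its near edge 614 bp inside the gene. Of these windows, 2 were called lower and 2 higher in betaTC3 than in EV. Cela1, an elastase, was lower in betaTC3 than in EV, with a log2 change of -4.03. The windows of Gp2, the zymogen granule glycoprotein, at 46997 bp from the gene start, and of Amy2a5, an amylase, at 18473 bp, were higher, with log2 changes of 3.18 and 2.82. At that distance the assignment to the gene is that of the authors' table alone, and the amylase genes are near-identical copies, which makes its counts uncertain. Without either betaTC3 library the Amy2a5 log2 change against EV stayed near its value, at 2.78 without replicate 1 and 2.86 without replicate 2, and its adjusted p was 0.0792 and 0.0710 by limma. The direction was the same for these 3 genes against KD, with log2 changes of -3.21 for Cela1, 4.32 for Gp2 and 2.85 for Amy2a5. Against KD the Amy2a5 change was 2.81 without betaTC3 replicate 1 and 2.89 without replicate 2, and neither fit called it.

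Duct genes divided. Of 19 windows of 15 genes, 9 were higher and 7 lower in betaTC3 than in EV. Cldn1, a tight junction claudin, held 565 scaled reads on average in betaTC3 against 2.43 in EV, a log2 change of 7.53 (adjusted p = 6.1e-05 by limma). Cd24a, a surface antigen of duct and progenitor cells, held 197 in betaTC3 and 0 in both EV libraries, at least 59.3-fold higher against 3 reads per library. On the other side, Car2, the carbonic anhydrase of bicarbonate secretion, held 7.57 in betaTC3 against 425 in EV (log2 change -5.72). A window 4390 bp upstream of Prox1, a homeobox factor of progenitors, held 5.17 in betaTC3 against 282 in EV (log2 change -5.52). Against KD, 9 were higher and 6 lower, and Bicc1, an RNA-binding protein of ducts, and Epcam, an epithelial adhesion molecule whose window is 22927 bp upstream, were at least 30.7-fold and 14.4-fold higher in betaTC3, KD being at 0.

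For the Notch pathway, which acts upstream of Hes1, the called windows fell on both sides, also among its fringe enzymes and receptors. Of 26 windows of 23 genes, 9 were higher and 7 lower in betaTC3 than in EV, and 12 were higher and 6 lower than in KD. Among the ligands Jag1 held 288 scaled reads on average in betaTC3 against 1.99 in EV (log2 change 6.62, adjusted p = 0.000135 by limma). Lfng, the glycosyltransferase that modifies Notch receptors, held 353 in betaTC3 and 0 in both EV libraries, at least 106-fold higher. Nrarp, a target that restrains the pathway, had a window 12663 bp upstream that was not called against EV. It held 130 in betaTC3 and 92.3 in EV (log2 change 0.50, adjusted p = 0.122 by limma). The window 566 bp inside Nrarp held 329 in betaTC3 against 3.32 in EV, a log2 change of 6.27 (adjusted p = 0.00216 by limma). Without betaTC3 replicate 1 the Nrarp change was 6.24 (adjusted p = 0.0667 by limma), and without replicate 2 it was 6.30 (adjusted p = 0.0618 by limma). A window 10749 bp inside Rbpj, the DNA-binding factor of the pathway, held 73.5 in betaTC3 and 0 in both EV libraries. Farther inside Rbpj, at 34997 bp, a window held signal in both lines, with 1043 in betaTC3, 391 in KD and 571 in EV. There the betaTC3 and EV libraries overlapped, and the window was not called against EV (log2 change 0.73, adjusted p = 0.181 by limma). Against KD it was called higher in betaTC3 (log2 change 1.29, adjusted p = 0.0330 by limma).

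Windows of the receptors Notch1 and Notch2 differed in opposite directions, and they were picked after their values were seen. Notch1 held 86.2 and 105 scaled reads in betaTC3, 0 and 2.80 in KD, and 0 and 0.89 in EV, with a log2 change of 6.13 for betaTC3 minus EV (adjusted p = 0.000298 by limma). Notch2 held 15.2 and 19.0 in betaTC3, 498 and 639 in KD, and 710 and 724 in EV, with a log2 change of -5.32 (adjusted p = 6.5e-06 by limma). The windows of both receptors did not overlap between the lines. Whether the levels at these genes move with that at the Hes1 start was not tested.

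**Figure D5:**
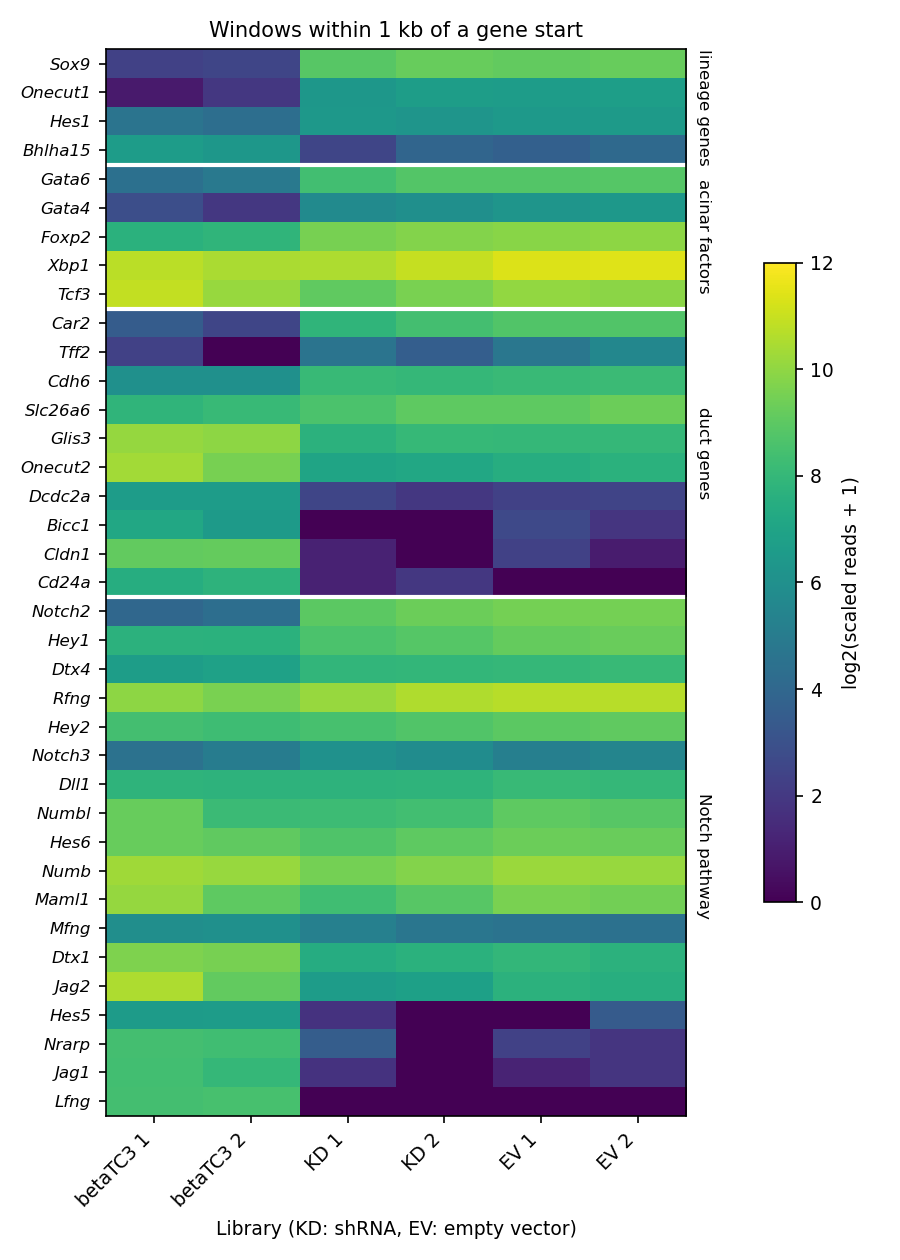
Heat map of log2(scaled reads + 1) in each library (columns, betaTC3 left of KD and EV) for the windows of the 9 genes and of the lists that lie within 1 kb of a gene start by the distance in the authors' table (rows, grouped by list). Sox9 and Onecut1 share the dark betaTC3 columns with Gata4, Car2 and Notch2, and Bhlha15 is brighter in betaTC3.

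The knockdown moved none of the listed windows past the threshold. By the rule for lists without a call, the windows nearest to a gene start with the highest mean were Xbp1 and Tcf3 for the acinar factors, which stood at -0.66 and -0.66 on the log2 scale for KD minus EV (limma adjusted p = 0.123 and 0.150). For the duct genes they were Glis3 and Onecut2 at -0.12 and -0.46 (adjusted p = 0.569 and 0.220 by limma), and for the Notch pathway Rfng and Numb at -0.36 and -0.56 (adjusted p = 0.228 and 0.117 by limma). After median centring, Glis3 was at 0.25 and Rfng at 0.014. The smallest adjusted p in these lists, 0.0641, was that of a window 1157 bp inside Tff2, a trefoil peptide gene of mucous cells, which was picked for this reason. It held 8.36 and 8.39 scaled reads in KD and 46.3 and 42.6 in EV, a log2 change of -2.28. The libraries of the 2 groups were apart, and the change did not pass the test. It passed with a pseudocount of 0.1 (adjusted p = 0.0384 by limma), without the intensity trend (0.0124) and without KD replicate 2 (0.0288).

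Windows of other genes with the most similar levels were found by the Euclidean distance of log2(scaled reads + 1) over the 6 libraries. For Sox9 they were Zfp641, Bend5 and Mdfic, at distances of 0.359, 0.542 and 0.560. For the Nr5a2 window at 11760 bp they were Gm12158, Gng2 and Gm3264, at 0.255, 0.420 and 0.50. The nearest to Onecut1 were Gm11729, Stpg2 and Gm1943, at 0.454, 0.460 and 0.487. The nearest to the Hes1 start were Tal1, Shc3 and Gm16169, at 0.435, 0.475 and 0.549. Bhlha15 had no window as close, its nearest being Gm38234, Gm26327 and Gm22945 at 0.792, 0.794 and 0.881.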

How the data were processed

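Values came from the authors' deposited table of windows and from 6 deposited peak lists, 1 per library. Picard 2.19.2, MACS2 2.2.7.1, Bowtie2 2.4.1 and the build mm10 (GRCm38) appear in the submitters' processing notes, where their roles are not stated. Per the labels' protocols, libraries were made with NEBNext Ultra II reagents and read as 50 bp single reads. The deposited signal of each library was made up of whole steps of 1 size (tolerance 0.001), so the whole numbers were taken as reads and the values are called scaled reads. The sources used here do not state how the authors set the factors or whether they subtracted the input. After such a subtraction a 0 would mean no excess over the input. In the peak lists the authors' score, ratio (fold over background), −log10 p-values and q-values and summit position were used as deposited, only to describe or filter peaks within a list. Input samples were not analysed separately.

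With limma 3.58.1 in R 4.3.3, log2(scaled reads + 1) of all 6 libraries was fitted with a mean per group and an intensity trend, and p-values were adjusted by Benjamini-Hochberg over 17641 windows. The fit was tested on simulated data. Ratios of pooled reads have exact 95% intervals. Separate cultures are not named for the replicates in the labels, and the p-values therefore reflect no more than the spread of these libraries, which may be technical. The genes, the lists and the tests were chosen with earlier results of these data known, and the lists support nothing on their own. All windows of the 9 genes were named, and from each list and comparison up to 4 called windows with the largest log2 change or, with none called, the 2 of highest mean nearest to a gene start. The result of 1 such window is not reported here. Alternatives were another pseudocount (0.1 or 10), a mean of at least 10 scaled reads, median centring, no trend, a replicate block, only the groups compared, each library left out, edgeR 4.0.16 and DESeq2 1.42.0 on the recovered reads, and stricter peak rules. Same-numbered libraries did not deviate together (r = -0.176 for betaTC3 and KD, 0.085 for betaTC3 and EV, -0.0079 for KD and EV), and the main fit did not pair them. With 2 libraries per group, these values cannot show whether same-numbered libraries were prepared together. Gene positions and promoter sequences came from RefSeq, GRCm38.p6.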

Additional observations from a re-analysis of the deposited data

How the results depend on the processing

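The calls of the Sox9, Onecut1 and Nr5a2 windows and of the Hes1 start in both betaTC3 comparisons kept their direction and passed the test under every alternative run. The Sox9 log2 change for betaTC3 minus EV ran from -7.00 to -5.34. Leaving out 1 library at a time, 5 to 6 of the 7 windows were called for betaTC3 minus EV, 6 for betaTC3 minus KD and 0 to 1 for KD minus EV, and of the listed windows 0 to 13 were called for KD minus EV, the 13 being reached without KD replicate 2, where 6281 of all windows were called. A group left with 1 library is assumed to vary like the others. Of the listed windows, 3 were called for KD minus EV with a pseudocount of 0.1, where 335 of all windows were, and 1 without the trend, where 163 were. With peaks at or above the median −log10 q-value, 0 genes in betaTC3, 2 in KD and 2 in EV had a peak in both libraries. With the replicate block, 6, 6 and 0 windows of the 9 genes and 40, 40 and 0 listed windows were called for betaTC3 minus EV, betaTC3 minus KD and KD minus EV. A crossed block for betaTC3 and KD, added after seeing the data, called 6 and 44. The downstream Hes1 window passed against EV with a pseudocount of 10 (log2 change -0.64, adjusted p = 0.0438 by limma), and against KD it ran from -0.56 to 0.046 without 1 library, the positive value being that without betaTC3 replicate 2.

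The sign of small KD minus EV changes depended on scaling. Median centring gave 0.26 for Sox9, 0.12 and 0.11 for Nr5a2 at 44915 and 11760 bp, 0.20 for Onecut1, 0.18 for the Hes1 start, 0.25 for Glis3 and 0.014 for Rfng. In the same order edgeR gave 0.26, 0.12, 0.11, 0.20, 0.20, 0.26 and 0.018. DESeq2 gave 0.25 for Sox9, 0.25 for Glis3 and 0.0094 for Rfng. Without 1 library, Sox9 ran from -0.30 to 0.063, Bhlha15 from -1.36 to 0.016 and Glis3 from -0.29 to 0.046, the lowest without KD replicate 2 and the highest without KD replicate 1. The causes were not tested. DESeq2 gave no adjusted p for 5 of the 7 windows and 20 of the 55 listed windows in this comparison. Over all windows, the share of calls that were higher for betaTC3 minus EV was 40.0%, and 51.8% after centring, 52.0% in edgeR and 55.6% in DESeq2. For betaTC3 minus KD it was 60.3%, and 51.8%, 51.7% and 55.8% in that order. With 2 libraries per group and few reads in betaTC3, the folds of Onecut1 and Nr5a2 are known only within their counting intervals, which for Onecut1 in EV over betaTC3 is 22.7 to 219.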
